A study of Mus musculus with 4 samples.

Results

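The 31 genes described here are interferon-stimulated genes, which cells switch on after interferon binds its receptors. They were chosen by name, from families long known to respond to interferon, with earlier results of these data known. Each needed values of 10 or more in 2 or more of the 4 libraries. All 31 passed, out of 23420 genes in the table, and the lowest value of any of them in any library was 13.995. RNA was sequenced from myeloid cells sorted for the integrin CD11b and for CD200R1, which binds CD200. They came from orthotopic squamous cell carcinomas of the skin, and the strain was FVB/N throughout. In the EpiKO group (K14Cre;CD200fl/fl, 2 libraries) Cre recombinase under the keratin 14 promoter removes Cd200 from keratin 14 expressing epithelium, and the tumours are labelled as lacking CD200. In the WT group (wild type, 2 libraries) the tumours are labelled as carrying CD200. The labels give no age, tumour stage or time, and do not say whether a library is 1 mouse or a pool, so p-values measure only the spread between these libraries, which may be technical. The labels also carry no replicate numbers. Replicates 1 and 2 of each group were numbered here in the order in which the samples are listed.

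Type I interferons act through the receptor IFNAR and the kinases JAK1 and TYK2, which activate a transcription factor complex that holds STAT2 and IRF9. That complex binds the interferon-stimulated response element in promoters, whereas the response to interferon gamma runs through the gamma-activated site. The induced proteins bind or cut viral RNA, tag proteins with ISG15, restrain viruses and other microbes inside the cell, and feed back on the pathway. Macrophages keep many of these genes at a low basal level, set by small amounts of type I interferon.

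The response element is visible in the promoters of several of the genes whose values follow. The letters below are from RefSeq (GRCm38.p6), are read 5′ to 3′ towards the gene, and stop before the annotated start. Capitals mark the core of the response element on either strand, which is GAAA followed by NN and GAAA and reads as TTTC, NN and TTTC from the other strand, and in Irf1 the gamma-activated site TTCNNNGAA. Ifit1, Ifit3, I830012O16Rik, Isg15, Oas3 and Rsad2 hold the core and are examples of genes with both EpiKO libraries below both WT libraries. Bst2, Gbp3 and Irf1 hold a match and are examples of genes whose groups overlapped. Irf7, Cmpk2, Oasl1 and Isg20 also had both EpiKO libraries below both WT libraries, but had no core within 250 bases upstream.
Ifit1, chr19:34640775-34640870, plus strand: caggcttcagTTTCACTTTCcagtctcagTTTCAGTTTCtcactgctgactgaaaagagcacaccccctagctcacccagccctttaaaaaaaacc
Ifit3, chr19:34583363-34583528, plus strand: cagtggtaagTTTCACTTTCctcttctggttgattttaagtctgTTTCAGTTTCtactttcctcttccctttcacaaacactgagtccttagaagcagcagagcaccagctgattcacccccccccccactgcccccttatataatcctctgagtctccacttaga
I830012O16Rik, chr19:34607759-34607956, plus strand: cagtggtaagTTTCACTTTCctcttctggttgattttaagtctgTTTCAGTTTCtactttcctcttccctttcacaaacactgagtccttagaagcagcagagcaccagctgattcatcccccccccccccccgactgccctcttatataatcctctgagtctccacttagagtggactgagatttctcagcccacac
Isg15, chr4:156200819-156200906, minus strand: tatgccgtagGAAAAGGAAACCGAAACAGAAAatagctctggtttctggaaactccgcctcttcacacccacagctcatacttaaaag
Oas3, chr5:120777662-120777744, minus strand: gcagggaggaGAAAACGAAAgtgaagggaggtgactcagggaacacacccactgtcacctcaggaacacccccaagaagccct
Rsad2, chr12:26456453-26456582, minus strand: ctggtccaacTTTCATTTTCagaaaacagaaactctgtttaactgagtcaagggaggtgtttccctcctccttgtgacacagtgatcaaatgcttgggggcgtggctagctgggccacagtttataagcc
Bst2, chr8:71537473-71537612, minus strand: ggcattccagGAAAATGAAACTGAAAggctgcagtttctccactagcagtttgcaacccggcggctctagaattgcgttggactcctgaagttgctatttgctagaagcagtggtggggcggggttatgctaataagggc
Gbp3, chr3:142559989-142560025, plus strand: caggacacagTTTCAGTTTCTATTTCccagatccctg
Irf1, chr11:53769914-53770013, plus strand: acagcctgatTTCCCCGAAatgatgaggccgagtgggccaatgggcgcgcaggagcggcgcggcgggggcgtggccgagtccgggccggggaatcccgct

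Of the 31 genes, 23 had a promoter in the RefSeq table, and 13 of these held that core within 250 bases upstream of a start. Over all genes of that table, 3.46% held it. Of 54 further interferon-stimulated genes with a promoter, from the wider list given below, 23 held it (42.6%). TTCNNNGAA was found for 6 of the 23 genes, for 7 of the 54 further genes (13.0%) and for 8.13% of all genes. The sites of the pair of motifs overlapped in Bst2. A match describes letters only. The 13 genes with the core had a median log2 fold change (EpiKO minus WT) of -0.77, and the 10 without the core one of -0.42. By count, 10 of the 13 with the core were negative and 10 of the 10 without it, since Gbp2, Gbp3 and Stat2 hold the core and were positive. The difference between the sets was not tested. Ifit3 and I830012O16Rik, the file's symbol for Ifit3b, have nearly the same promoter, identical at 216 of 224 aligned positions (96.4%).

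Depth was 17398176 and 19318481 reads in EpiKO, against 15884132 and 21244158 reads in WT. Cd200, the targeted gene, was at 17.2 and 15.1 in EpiKO, against 92.7 and 59.7 in WT, which does not check the labels because Cre acts in keratin 14 expressing epithelium and not in the sorted cells. Macrophage genes such as Csf1r and Mrc1 were abundant in every library, and Itgam, which encodes CD11b, was at 40692 and 30075 in EpiKO, against 26151 and 26738 in WT. Cd200r1, the other gene of the sort, was at 1101 and 612 in EpiKO, against 318 and 293 in WT (log2 fold change 1.43, SE 0.293, adjusted p = 0.115 by limma), so both sort genes were higher in both EpiKO libraries than in either WT library. The libraries also differed in genes of the keratinocyte list, in opposite directions from gene to gene. Krt8, a keratin of simple epithelium, was at 1999 and 4164 in EpiKO, against 446 and 234 in WT (adjusted p = 0.0616 by limma and 3.76e-12 by DESeq2). Its partner Krt18 was at 698 and 1074 in EpiKO, against 121 and 30.3 in WT, and the E-cadherin gene Cdh1 at 4437 and 685 in EpiKO, against 547 and 361 in WT. For these 3 genes both EpiKO libraries lay above both WT libraries. The basal keratin gene Krt14 was at 8.61 and 18.9 in EpiKO, against 1907 and 28.6 in WT, and Krt5, Krt10, Epcam, Trp63, Sfn and Dsp were also highest in WT replicate 1. Krt14 and these other genes reached at most 18.9 in either EpiKO library. The number of the 31 genes with a negative log2 fold change was 27 without WT replicate 1, and the part of epithelial RNA in their values was not tested.

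The pattern shared by all 31 genes was a difference between the EpiKO libraries. EpiKO replicate 1 was the lowest of the 4 libraries for 29 of the 31 genes, against 24.9% of all 12463 tested genes. EpiKO replicate 2 lay below both WT libraries for 13 of the 31, between them for 11 and above both for 7. Set against the mean of the WT libraries on the scale log2(value + 1), the median of the 31 genes was -0.88 in EpiKO replicate 1 and -0.0020 in EpiKO replicate 2. All 31 genes were higher in EpiKO replicate 2 than in EpiKO replicate 1, by a median of 0.68 on that log2 scale, where 49.96% of all tested genes were. Within WT, 24 of the 31 were higher in replicate 2, where 48.4% of all tested genes were, and the median difference over all 31 was 0.35. For 22 of the 31 genes the gap inside EpiKO was wider than the difference between the group means, against 50.5% of all tested genes.

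**Figure D1:**
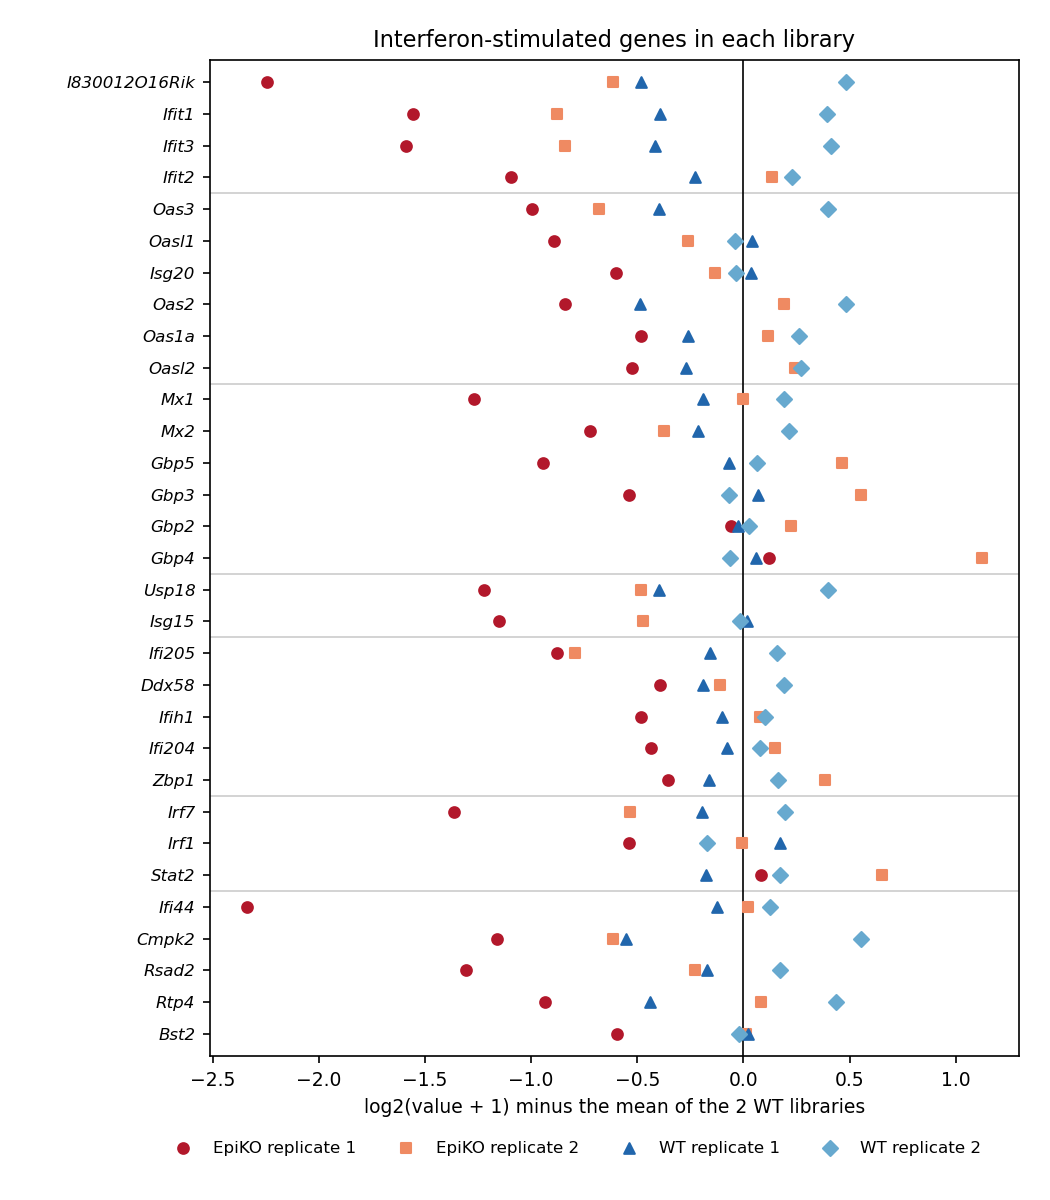
Each row is 1 interferon-stimulated gene and each point 1 library, placed at its log2(value + 1) minus the mean of the 2 WT libraries, with grey lines between functional classes. EpiKO replicate 1 is the leftmost point for 29 of the 31 genes, whereas EpiKO replicate 2 lies among or beyond the WT points for many.

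None of the 31 genes was called lower or higher in EpiKO by limma, at a Benjamini-Hochberg adjusted p under 0.05 over all tested genes. Of all tested genes, 0.947% were called in either direction, 0.530% lower and 0.417% higher. At an unadjusted p under 0.05, 5 of the 31 were lower (16.1%) and 0 higher, beside 7.57% and 8.07% of all tested genes. On the recovered read counts, edgeR and DESeq2 also called 0 of the 31 in either direction, beside 0.963% of all genes by edgeR (0.530% lower, 0.433% higher) and 6.85% by DESeq2 (3.12% lower, 3.73% higher). At an unadjusted p under 0.05, 5 were lower by edgeR and 7 by DESeq2, beside 7.63% and 6.68% of all tested genes, and 0 were higher by either, beside 8.26% and 7.79%. The smallest adjusted p among the 31 was 0.221 by limma, 0.2003 by edgeR and 0.0544 by DESeq2, each for Ifit1. The log2 fold change was negative for 26 of the 31 and positive for 5, with a median of -0.43, where 50.3% of all tested genes were negative and their median was -0.0021. Both EpiKO libraries lay below both WT libraries for 13 of the 31, beside 23.8% of all tested genes, and above both for 1, beside 23.3%. Without EpiKO replicate 1 the number of negative fold changes was 16 and the median was -0.0020, and without EpiKO replicate 2 they were 29 and -0.88. Without WT replicate 1 they were 27 and -0.71, and without WT replicate 2 they were 23 and -0.33. WT replicate 2 was the highest library for 19 of the 31 genes, beside 22.4% of all tested genes. Every mean difference below therefore rests in part on EpiKO replicate 1. In a bulk sample fewer cells that express a gene cannot be told apart from less RNA per cell.

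**Figure D2:**
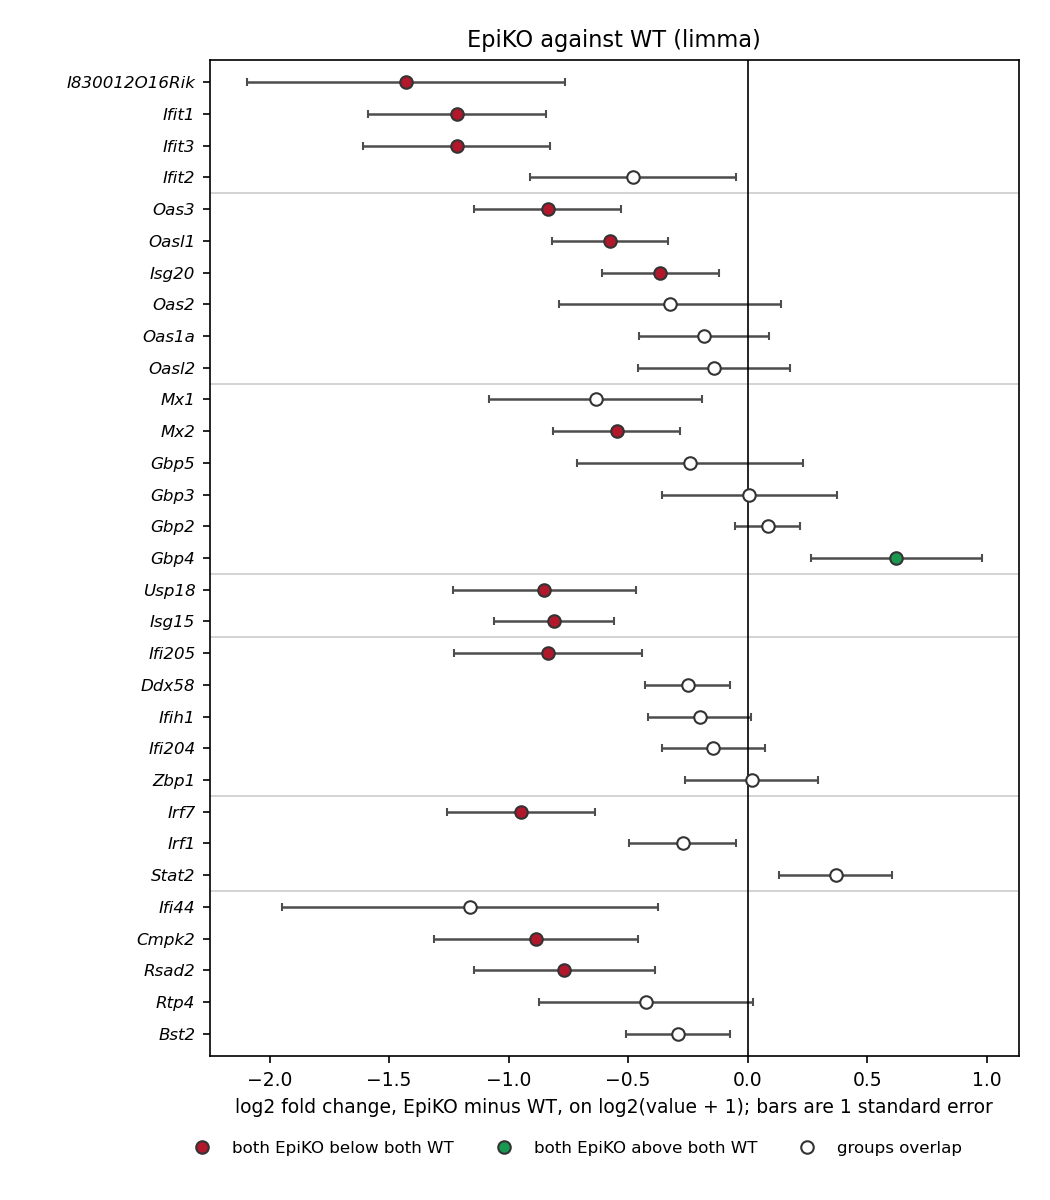
Points are log2 fold changes (EpiKO minus WT, on log2(value + 1)) with bars of 1 moderated standard error from limma, for n = 2 libraries in each group. Red marks the 13 genes with both EpiKO libraries below both WT libraries, green the 1 gene with both above, and white the 17 whose groups overlap.

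The IFIT family, proteins with tetratricopeptide repeats that bind foreign RNA and hold back its translation, had the lowest median of any class, at -1.22 on the log2 scale over its 4 genes. Ifit1, which recognises RNA whose cap lacks ribose methylation, had values of 78.6 and 127 in EpiKO replicates 1 and 2, against 177 and 307 in WT replicates 1 and 2. Its libraries did not overlap between the groups, and the log2 fold change was -1.22 (SE 0.371, limma adjusted p = 0.221). Ifit3, whose human counterpart forms complexes with IFIT1, stood at 85.0 and 144 in EpiKO, against 194 and 345 in WT. It showed the same order of libraries as Ifit1, and a difference of -1.22 on the log2 scale (SE 0.391, limma adjusted p = 0.240). I830012O16Rik, the near copy of Ifit3, was the lowest of the family at 13.995 and 45.4 in EpiKO, against 49.8 and 98.3 in WT (log2 fold change -1.43, SE 0.665). EpiKO replicate 2 came close to WT replicate 1 for this gene, and the gap inside EpiKO was 1.63 on the log2 scale. Ifit2, whose human counterpart binds AU-rich RNA, stood at 307 and 719 in EpiKO, against 559 and 769 in WT. Its groups overlapped, because EpiKO replicate 2 exceeded WT replicate 1. The 4 genes lie within 99.3 kb of chromosome 19 in mm10, from 34550694 to 34650009.

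Ifit3 and I830012O16Rik cannot be fully separated by short reads. Of all stretches of 50 bases in the annotated transcripts of Ifit3, 51.2% also occur in transcripts of another gene, here Ifit3b. For I830012O16Rik the share was 45.0%, and for Oas1a it was 57.6%, with Oas1g as its near copy. Ifi204 and Ifi205, with 20.0% and 18.6%, share stretches mainly with Ifi211, and Rtp4, with 11.6%, shares them with Gm45338. These 6 genes are the ones above 10%, and Gbp4 shares exon sequence with Gbp8 and Gbp9 on the same strand, so all these values are uncertain to the extent that counting split or dropped shared reads. For reads with several alignments, the handling was not given in the sources used here.

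Genes of the OAS family encode or resemble the enzymes that sense double-stranded RNA and build oligoadenylate, the messenger that activates RNase L. Together with Isg20, an exonuclease that degrades RNA, the 6 genes had a median log2 fold change of -0.35, all negative, and 3 of them did not overlap between the groups. Oas3, the synthetase that binds long double-stranded RNA, had values of 156 and 195 in EpiKO, against 236 and 412 in WT. Both EpiKO libraries were lower and close together, while the WT libraries were far apart (log2 fold change -0.84, SE 0.307, adjusted p = 0.293 by limma). Oasl1, which in mouse restrains translation of Irf7 mRNA, stood at 164 and 254 in EpiKO, against 313 and 297 in WT. Isg20 stood at 84.0 and 116 in EpiKO, against 131 and 124 in WT. For both, the WT libraries were alike and EpiKO replicate 1 stood apart. Oas1a was at 597 and 904 in EpiKO, against 695 and 1002 in WT. Oas2 was at 275 and 561 in EpiKO, against 351 and 689 in WT. Oasl2 was at 444 and 756 in EpiKO, against 529 and 772 in WT. In these last 3 genes replicate 2 was the higher library of either genotype, and the groups overlapped throughout, with log2 fold changes of -0.18, -0.32 and -0.14.

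The large GTPases comprise Mx1 and Mx2, dynamin-like proteins that block virus replication, and the guanylate-binding proteins, which attack membranes of intracellular pathogens and respond strongly to interferon gamma. Mx1 had values of 119 and 289 in EpiKO, against 254 and 330.3 in WT (log2 fold change -0.64, SE 0.445), and Mx2 had 76.4 and 97.3 in EpiKO, against 109 and 147 in WT (-0.55, SE 0.265). EpiKO replicate 1 was the lowest library for both, and only Mx2 had groups that did not overlap. Gbp4 was at 159 and 320.4 in EpiKO, against 153 and 140.4 in WT. It was the 1 gene of the 31 with both EpiKO libraries above both WT libraries, although EpiKO replicate 1 exceeded WT by little (log2 fold change 0.62, SE 0.357, adjusted p = 0.5001 by limma). Gbp2 was at 790.2 and 962 in EpiKO, against 809 and 837 in WT. Gbp3 was at 464 and 991 in EpiKO, against 707 and 645 in WT. Gbp5, which promotes inflammasome assembly, was at 132 and 353 in EpiKO, against 245 and 268 in WT. For Gbp2, Gbp3 and Gbp5 the EpiKO libraries lay on either side of both WT libraries, so their log2 fold changes of 0.083, 0.0067 and -0.24 average opposite values. EpiKO replicate 2 was the highest library for all 4 guanylate-binding genes.

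ISG15 is a ubiquitin-like protein that is attached to other proteins, and USP18 removes it and also blocks the type I interferon receptor. Isg15 had values of 174 and 279.7 in EpiKO, against 393 and 384 in WT. The WT libraries were nearly equal and both EpiKO libraries lay below them, and the difference was -0.81 on the log2 scale (SE 0.251, limma adjusted p = 0.222). Usp18 was at 94.7 and 159 in EpiKO, against 168 and 293 in WT (log2 fold change -0.85, SE 0.383, adjusted p = 0.383 by limma). Here EpiKO replicate 2 reached nearly the level of WT replicate 1.

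Apart from Ifi205, the sensors of foreign nucleic acid were among the least different genes. Ddx58, which encodes the RNA sensor RIG-I, was at 674 and 821 in EpiKO, against 777 and 1010.4 in WT. Ifih1, which encodes the RNA sensor MDA5, was at 517 and 762 in EpiKO, against 673 and 773 in WT. Zbp1, a sensor of Z-form nucleic acid that can trigger cell death, was at 383 and 639.8 in EpiKO, against 437 and 549 in WT. EpiKO replicate 1 was the lowest library for all 3, the groups overlapped, and the log2 fold changes were -0.25, -0.20 and 0.016. Ifi204, a DNA-binding protein of the PYHIN family, was at 679 and 1022 in EpiKO, against 872 and 972 in WT. Its relative Ifi205 had low values of 15.1 and 16.1 in EpiKO, against 25.5 and 31.9 in WT. The EpiKO libraries were almost equal for Ifi205, with a gap of 0.087 on the log2 scale, the narrowest inside EpiKO of the 31 genes (log2 fold change -0.84, SE 0.392).

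Of the transcription factors, Irf7, the factor that amplifies interferon alpha production, differed most. It had values of 504 and 899 in EpiKO, against 1135 and 1489 in WT, and the log2 fold change was -0.95 (SE 0.310, limma adjusted p = 0.245). Both EpiKO libraries lay below both WT libraries, and EpiKO replicate 1 was again the lower. Irf1, a factor induced by interferon gamma, was at 1000.1 and 1448 in EpiKO, against 1637 and 1290.3 in WT. Stat2, which acts with IRF9 in type I signalling, was at 674 and 1003 in EpiKO, against 564 and 719 in WT. Stat2 and Gbp4 were the genes for which EpiKO replicate 1 was not the lowest library, and the log2 fold change of Stat2 was 0.37 (SE 0.236).

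The remaining effectors act on membranes, nucleotides and other steps, and their 5 log2 fold changes were all negative with a median of -0.77. Rsad2, or viperin, which makes a chain-terminating nucleotide, was at 225 and 476 in EpiKO, against 495 and 629 in WT. Its neighbour Cmpk2, a mitochondrial nucleotide kinase that shares a stretch of 37.1 kb with it on chromosome 12, was at 94.7 and 139 in EpiKO, against 145 and 313 in WT. Neither gene's groups overlapped, but EpiKO replicate 2 nearly reached WT replicate 1 for both (log2 fold changes -0.77, SE 0.378, and -0.89, SE 0.427). Ifi44 had the widest gap inside EpiKO of the 31 genes, with values of 23.7 and 126 in EpiKO, against 114 and 135 in WT. Its mean log2 fold change of -1.16 (SE 0.787) comes from EpiKO replicate 1, since replicate 2 lay between the WT libraries. Bst2, or tetherin, which holds budding virus at the cell surface, was at 1135 and 1732 in EpiKO, against 1743 and 1692 in WT. EpiKO replicate 2 and both WT libraries were nearly equal and EpiKO replicate 1 was lower. Rtp4 was at 179 and 363 in EpiKO, against 253 and 465 in WT, and its groups overlapped.

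Per kilobase of annotated exon, Bst2 had the highest level of the 31 genes, with a mean value of 1745 per kilobase over the 4 libraries. Oas1a followed at 424, Isg15 at 407 and Irf1 and Gbp2 at 338 each. The lowest levels per kilobase were those of Ifi205 at 5.30, Ifi44 at 16.2 and Gbp4 at 25.8. Ifit1 stood at 64.9 per kilobase and I830012O16Rik, with the lowest fold change, at 25.9. The summed value of the 31 genes was 10318 and 16720.1 in EpiKO, against 14942 and 17929 in WT, or 0.0551% and 0.0916% of all values in EpiKO and 0.0812% and 0.1004% in WT. EpiKO replicate 2 exceeded WT replicate 1 in this sum.

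**Figure D3:**
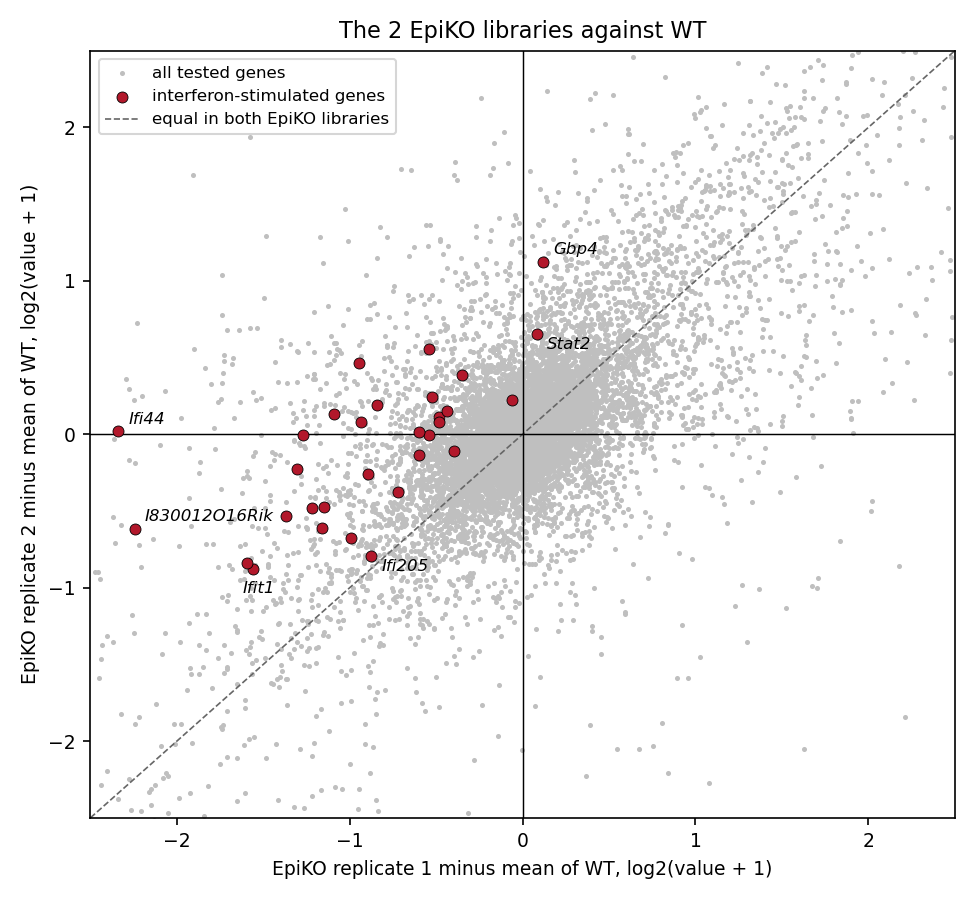
Each point is a gene, with its log2(value + 1) minus the mean of WT in EpiKO replicate 1 on the horizontal axis and in EpiKO replicate 2 on the vertical axis, for all tested genes (grey) and the 31 interferon-stimulated genes (red). Of the 31 genes, 29 lie left of 0 and all lie above the diagonal, while 16 lie below 0 on the vertical axis. Beyond the axis limits of 2.5 lie 325 tested genes and 0 of the 31.

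Interferon genes themselves were close to absent. Of 21 interferon ligand genes, 18 had no read in any library, including Ifng and all but 1 of the listed Ifna genes. Ifnb1, which encodes interferon beta, had 1 and 11 reads in EpiKO, against 18 and 0 reads in WT. These few reads do not set an order of the libraries for Ifnb1, and its relation to the interferon-stimulated genes was not tested. Ifna2 and Ifnz had between 0 and 2 reads in each library. At this depth, 3 reads stand for a value of 2.52 to 3.48, which is the upper limit that a count of 0 allows, for counting error only.

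The receptors were plentiful apart from the lambda receptor, and all 6 had a negative log2 fold change, none of them called by limma. Ifnar1, a chain of the type I receptor, was at 3935 and 4554 in EpiKO, against 5910.1 and 5909 in WT (log2 fold change -0.48, SE 0.123, adjusted p = 0.159 by limma). The WT libraries were equal and both EpiKO libraries lay below them, and DESeq2 on the recovered reads gave an adjusted p of 0.0422. Ifnlr1, a chain of the lambda receptor, was low at 4.31 and 2.84 in EpiKO, against 24.3 and 33.6 in WT (log2 fold change -2.72, SE 0.531, adjusted p = 0.0983 by limma and 0.0280 by DESeq2). Ifngr1 and Il10rb had log2 fold changes of -0.23 and -0.31.

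Downstream of the receptors, 6 of 8 signalling genes had a positive log2 fold change and none was called. Tyk2, a receptor kinase, was at 1884 and 1879 in EpiKO, against 1389.7 and 1494 in WT (log2 fold change 0.38, SE 0.104, adjusted p = 0.174 by limma). Irf2, Irf8 and Jak1 had log2 fold changes of 0.30, 0.21 and 0.12. Irf9, named after its values were seen, stood at 763 and 1062 in EpiKO, against 836 and 983 in WT. Its groups overlapped, and its log2 fold change was -0.0092. Of 7 brakes on signalling none was called. Socs1, which inhibits JAK kinases, was at 64.6 and 51.0 in EpiKO, against 124 and 111 in WT (log2 fold change -1.02, SE 0.251, adjusted p = 0.151 by limma).

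Genes that lead to interferon production had no common direction, with 9 of 19 negative, and none was called by limma. Ikbke, a kinase that activates IRF3 and IRF7, was at 1335 and 1058 in EpiKO, against 425 and 532 in WT (log2 fold change 1.32, SE 0.177, adjusted p = 0.0535 by limma). Both EpiKO libraries were well above both WT libraries, and the adjusted p was 1.5e-06 by DESeq2. Traf3, an adaptor of the same pathway, was at 902 and 754 in EpiKO, against 1324 and 1335 in WT (log2 fold change -0.69, SE 0.128, adjusted p = 0.0880 by limma and 0.00648 by DESeq2). Tlr4, the receptor for lipopolysaccharide, had a log2 fold change of 0.78 (adjusted p = 0.257 by limma and 0.0466 by DESeq2), and Mavs, the adaptor of the RNA sensors, one of 0.40.

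A wider list of 67 tested interferon-stimulated genes outside the 31 did not share their direction, with 34 negative, 33 positive and a median log2 fold change of -0.026. None was called by limma. Cxcl10, a chemokine that attracts T cells, was at 226 and 357 in EpiKO, against 633 and 1027 in WT (log2 fold change -1.501, SE 0.325, adjusted p = 0.126 by limma and 0.000557 by DESeq2). Ifitm3, which blocks virus entry at endosomes, had the opposite order at 4146 and 3432 in EpiKO, against 1857 and 2217 in WT (log2 fold change 0.89, SE 0.153, adjusted p = 0.0775 by limma and 0.000200 by DESeq2). Neither gene's groups overlapped. The GTPase gene Tgtp2 and Gm14446, an Ifit1-like gene, had log2 fold changes of -1.72 and -1.83 at low values. In this wider list EpiKO replicate 2 was above EpiKO replicate 1 for 51 of 67 genes and WT replicate 2 above WT replicate 1 for 55 of 67.

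**Figure D4:**
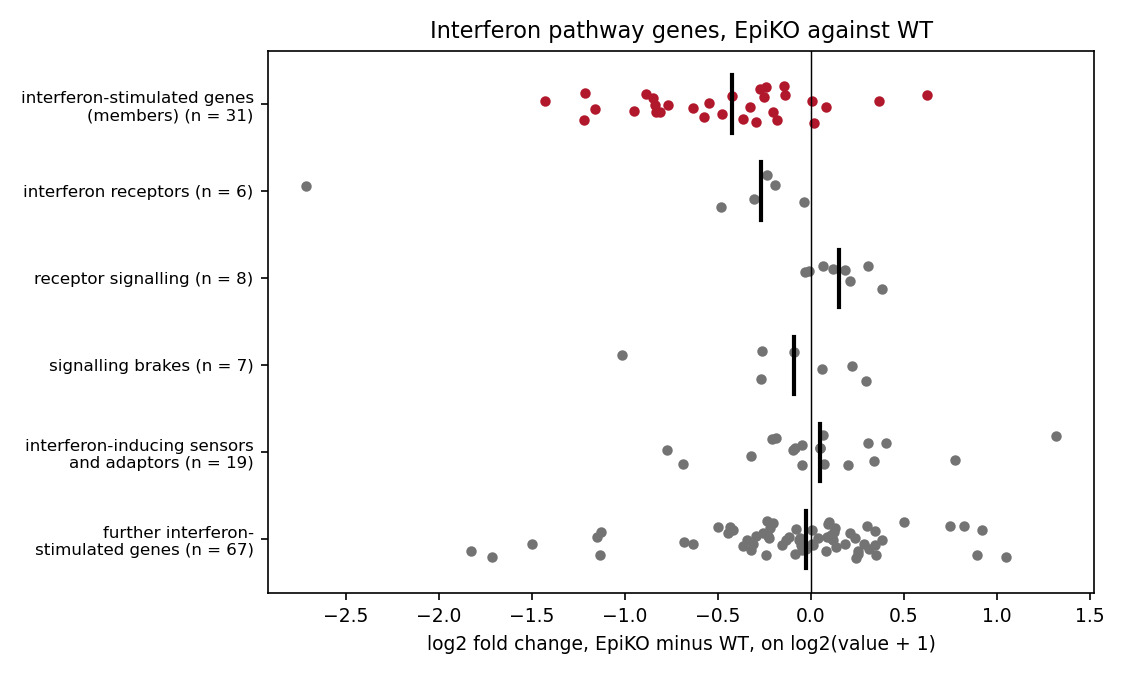
Points are log2 fold changes (EpiKO minus WT, on log2(value + 1)) of tested genes in each list, spread vertically for legibility, and black bars are list medians. The 31 genes have a median of -0.43, the receptors -0.27, the signalling genes 0.15, the brakes -0.089, the sensors and adaptors 0.048 and the further interferon-stimulated genes -0.026.

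The summed value of the neutrophil markers, 9 of 10 in the table, was 774 and 1580.2 in EpiKO, against 1375 and 2739 in WT. This is the order of the libraries in the summed interferon-stimulated genes, and only 1 of the 8 marker lists, the neutrophil list, had it. Csf3r, which encodes the receptor for granulocyte colony-stimulating factor, was at 514 and 1323 in EpiKO, against 1154 and 1215 in WT. It was the largest part of that sum in each library, but was itself highest in EpiKO replicate 2. S100a9 was at 38.8 and 117 in EpiKO, against 64.9 and 737 in WT, S100a8 at 184 and 84.1 in EpiKO, against 81.1 and 459 in WT, and Retnlg at 7.54 and 20.8 in EpiKO, against 55.6 and 166 in WT. These 3 genes were highest in WT replicate 2. So were the granule genes Mpo and Elane, which were at 0 in EpiKO replicate 1 and at no more than 6.72 elsewhere. Of the 6 neutrophil markers tested, 5 were highest in WT replicate 2, beside 22.4% of all tested genes. The summed values were lowest in EpiKO replicate 1 for 6 of 8 marker lists of cell types. Plasmacytoid dendritic cell markers, 10 of 10 in the table, summed to 4463 and 5380.3 in EpiKO, against 5191 and 4877 in WT, nearly all from Tcf4, Lair1 and Runx2, while Siglech was at 0 and 5.67 in EpiKO, against 11.6 and 5.04 in WT. T and NK cell markers, 12 of 14, summed to 347 and 1059 in EpiKO, against 1966 and 690.1 in WT. Cd4 was at 100.1 and 893 in EpiKO, against 1755 and 575 in WT. It made up most of that sum except in EpiKO replicate 1, where Cd2 was higher at 151. Cd8a was at 0 in all libraries, and Cd3e and Cd3g were at 0 in all but WT replicate 1. B cell markers, 5 of 6, summed to 20.5 and 64.3 in EpiKO, against 82.3 and 74.8 in WT, mostly from Cd79b, with Pax5 at 0. Conventional dendritic cell markers, 8 of 8, summed to 178 and 247 in EpiKO, against 411 and 223 in WT. Ccl22 and Ccr7 had the highest means over all libraries, though not the highest values in each, and Clec9a was at 0 in all but WT replicate 1. Fibroblast and endothelial markers, 8 of 8, summed to 17788 and 26160.4 in EpiKO, against 30463 and 20465 in WT. Macrophage and monocyte markers, 11 of 11, summed to 310685 and 339298 in EpiKO, against 326596 and 286356 in WT. Keratinocyte markers, 10 of 10, summed to 7177 and 5969.99 in EpiKO, against 5142 and 730.5 in WT. In EpiKO nearly all of the keratinocyte sum came from Krt8, Krt18 and Cdh1, whereas Krt14 was its largest part in WT replicate 1. The part of these cell types in the values of the interferon-stimulated genes was not tested.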

How the data were processed

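Poly-A selected RNA from sorted cells was made into Illumina TruSeq libraries, per the labels' protocols. The submitters' processing notes name bcl2fastq 2.17, STAR 2.5.2b, featureCounts 1.5.0-p3, DESeq2 and mm10; the annotation, strand setting and multi-mapping were not given in the sources used here. Values of the deposited signal are read counts over a size factor for each library, from the authors' normalization, as the numbers show: 100% were whole multiples of 1 read within 1e-06 reads.

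EpiKO against WT was tested with limma 3.58.1 (R 4.3.3; trend, robust, two-sided) on log2(value + 1), for the 12463 genes that reached 10 in 2 or more libraries, with Benjamini-Hochberg adjustment over all of them. This scale understates changes of low genes. An exact permutation test of 2 against 2 cannot go below p = 0.333. Alternatives were edgeR 4.0.16 and DESeq2 1.42.0 on the recovered reads, and other pseudocounts, filters, scalings and left-out libraries. Scripts were tested on simulated data. The members and lists were chosen with earlier results of these data known. All 31 genes are named; of each other list, up to 4 genes with the smallest p, or with the highest mean for ligands and markers. Irf9, Ifng, Itgam, Cd200r1, the further keratinocyte genes and the markers at or near 0 were named after their values were seen. Gene positions and exon lengths are from GENCODE M21 (mm10), promoters from RefSeq (GRCm38.p6), promoter alignment by Biopython 1.88. A planned comparison of protein sequences was not made, and transcript stretches of 50 bases were compared instead. Of the 31 genes, 5 overlap exons of an opposite-strand gene, namely Oasl1, Gbp2, Usp18, Irf7 and Irf1, and without strand such reads cannot be told apart.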

Additional observations from a re-analysis of the deposited data

How the results depend on the processing

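None of the 31 genes was called at 0.05 by limma under any pseudocount, filter or scaling tried, nor by edgeR or DESeq2. At a threshold of 0.1 the main limma fit also called 0 of them. By DESeq2 the adjusted p was between 0.05 and 0.1 for Ifit1 (0.0544), Ifit3 (0.0619) and Irf7 (0.0679), all lower in EpiKO. The number of negative fold changes ranged from 16 (without EpiKO replicate 1) to 29 (without EpiKO replicate 2) when 1 library was left out, and their median from -0.88 to -0.0020. The number of genes with both EpiKO libraries below both WT libraries then ranged from 13 to 29, and with both above from 1 to 7, partly because fewer libraries overlap less often. Leaving out 1 library turned the sign of 13 of the 31 genes, 10 of them without EpiKO replicate 1. Their log2 fold changes then ranged from -0.60 to 0.012 for Bst2, from -0.059 to 0.23 for Gbp2, from -0.54 to 0.55 for Gbp3, from -0.95 to 0.46 for Gbp5, from -0.44 to 0.15 for Ifi204, from -2.34 to 0.020 for Ifi44, from -0.48 to 0.078 for Ifih1, from -1.09 to 0.13 for Ifit2, from -0.48 to 0.12 for Oas1a, from -0.84 to 0.19 for Oas2, from -0.52 to 0.24 for Oasl2, from -0.94 to 0.082 for Rtp4 and from -0.35 to 0.38 for Zbp1. With columns scaled to equal totals, Gbp3 and Zbp1 turned to -0.022 and -0.012; the median of all genes was then -0.030. The other 275 of 277 values of single genes under settings that keep all libraries kept their direction. The longer motif, the core with a further NNGAAA, was found for 4 of the 23 genes with a promoter, in place of 13. Over all genes with a promoter its share was 0.104%, in place of 3.46% for the core. Of the 54 further interferon-stimulated genes with a promoter, 3 held the longer motif, in place of 23. A left-out library leaves its group with 1, assumed to spread as widely as the pair in the other. No paired analysis was possible because the labels carry no replicate numbers and name no pairs of libraries. The depth limits the interferon ligands, which had at most 18 reads in a library.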
